A study of Mus musculus with 67 samples.

Results

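Genes that carry glucose into the cell, break it down to pyruvate, exchange lactate and pass pyruvate to the mitochondrion were followed in mouse forelimb buds. The 33 genes were chosen by their names, with earlier results of these data known. All 33 were found, each under 1 gene ID, among the 46983 gene IDs of 14 RNA-seq libraries. The series (67 samples in all) asked whether GLI3, which represses Hedgehog (HH) target genes in the absence of HH, already does so in limb buds that have not yet met the signal. Its RNA-seq libraries came from whole pre-HH forelimb buds at E9.25 (21 to 23 somites) and from the anterior part of post-HH forelimb buds at E10.5 (32 to 35 somites). At E9.25 there were 3 WT and 4 Gli3-/- libraries, and at E10.5 there were 4 WT and 3 Gli3-/- libraries. WT embryos were Swiss Webster, and Gli3-/- embryos were homozygous for the germline Xt-J deletion, kept on the same background, so that every cell of the embryo lacked a functional copy. Each library pooled, per the labels, about 4 pairs of buds at E9.25 or 2 pairs at E10.5, taken from several litters, and the p-values therefore measure the spread between pools. Because the E9.25 bud was taken whole and the E10.5 bud in part, stage and dissection cannot be told apart.

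In glycolysis, glucose enters through GLUT transporters, is trapped by a hexokinase, is committed by phosphofructokinase and, after aldolase splits the sugar, is turned into pyruvate by the lower enzymes with a gain of ATP. Lactate dehydrogenase A favors the reduction of pyruvate to lactate and lactate dehydrogenase B the reverse reaction, while monocarboxylate transporters move lactate across the membrane. Pyruvate enters the citric acid cycle through the pyruvate dehydrogenase complex, which pyruvate dehydrogenase kinases switch off. Many of these genes are targets of the hypoxia-inducible factors and of MYC, and midgestation mouse embryos are known for a high glycolytic rate.

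Levels are in TPM, a unit scaled for transcript length and library size. By an estimate from the deposited coverage, 1 TPM stood for 20.7 to 29.3 reads per kb of transcript, depending on the library. Gli3 itself, which the Xt-J deletion removes only in part, stood at 73.4 to 89.7 TPM in E10.5 WT and at 38.7 to 40.9 TPM in E10.5 Gli3-/- libraries. At E9.25 it stood at 14.3 to 20.8 TPM in the Gli3-/- libraries and at 44.2 and 44.6 TPM in WT libraries 1 and 3, but at 15.8 TPM in the library labelled E9.25 WT replicate 2. The 7 limb mesenchyme markers checked, among them Prrx1 and Tbx5, summed to 676 to 1196 TPM and none was at 0 in any library. Bulk RNA was measured, so fewer cells of a type and less RNA per cell cannot be told apart.

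The upstream sequences are shown for the 6 members with the largest log2 fold change, in either direction, between stages in WT buds. Such promoters can be read for the short motifs of hypoxia-inducible factors (ACGTG and GCGTG) and of MYC and other E-box factors (CACGTG). Each is the 250 bases before a RefSeq start in GRCm38.p6, 5′ to 3′ on the gene's strand, with the motifs (either strand) in capitals. Where RefSeq lists several starts, the one nearest the gene's deposited start was used. Ldha, Pdk1 and Pdk2 each have 2 listed starts, and which of them the limb bud uses was not tested. Ldha, Slc16a3, Pgk1 and Pdk1 were lower at E10.5, and Ldhb and Pdk2 were higher. The windows lie at chr7:46845554-46845803 (+ strand, Ldha), chr11:120948817-120949066 (+ strand, Slc16a3), chrX:106186850-106187099 (+ strand, Pgk1), chr2:71872974-71873223 (+ strand, Pdk1), chr6:142507958-142508207 (- strand, Ldhb) and chr11:95041372-95041621 (- strand, Pdk2).
Ldha: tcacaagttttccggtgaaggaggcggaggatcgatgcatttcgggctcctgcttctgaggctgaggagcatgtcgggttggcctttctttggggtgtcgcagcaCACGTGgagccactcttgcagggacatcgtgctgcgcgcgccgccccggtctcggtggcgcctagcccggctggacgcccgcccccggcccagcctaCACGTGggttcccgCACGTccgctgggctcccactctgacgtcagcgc
Slc16a3: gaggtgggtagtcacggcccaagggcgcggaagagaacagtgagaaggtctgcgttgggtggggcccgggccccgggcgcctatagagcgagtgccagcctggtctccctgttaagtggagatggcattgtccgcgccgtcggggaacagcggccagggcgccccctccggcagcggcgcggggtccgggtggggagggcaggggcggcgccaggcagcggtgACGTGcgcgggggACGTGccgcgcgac
Pgk1: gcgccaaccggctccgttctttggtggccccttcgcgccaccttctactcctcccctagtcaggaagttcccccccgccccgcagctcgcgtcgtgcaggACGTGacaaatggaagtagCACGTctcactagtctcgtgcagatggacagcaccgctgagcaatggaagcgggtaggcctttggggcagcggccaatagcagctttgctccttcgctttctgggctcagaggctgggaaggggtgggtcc
Pdk1: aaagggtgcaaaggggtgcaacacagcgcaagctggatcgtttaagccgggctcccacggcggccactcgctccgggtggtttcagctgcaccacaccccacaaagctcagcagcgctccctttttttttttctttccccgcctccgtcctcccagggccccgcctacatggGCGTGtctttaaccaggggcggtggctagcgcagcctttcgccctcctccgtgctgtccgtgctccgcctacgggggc
Ldhb: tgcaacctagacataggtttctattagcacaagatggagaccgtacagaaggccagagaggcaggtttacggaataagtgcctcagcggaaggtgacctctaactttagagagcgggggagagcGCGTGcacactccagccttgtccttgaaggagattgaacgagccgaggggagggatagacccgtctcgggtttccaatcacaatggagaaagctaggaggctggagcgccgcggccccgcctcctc
Pdk2: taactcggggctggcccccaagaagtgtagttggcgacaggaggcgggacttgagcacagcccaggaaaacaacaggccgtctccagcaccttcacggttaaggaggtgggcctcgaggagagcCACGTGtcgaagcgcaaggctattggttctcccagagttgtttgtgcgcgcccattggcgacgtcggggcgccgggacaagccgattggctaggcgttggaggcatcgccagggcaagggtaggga

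The Ldha window held 2 copies of CACGTG, at 145 and 48 bases before the start, and Pdk2 held 1, at 126 bases before it. CACGTG contains ACGTG on both strands, so each of these also counts as an ACGTG match. Among the 32 members with a promoter entry, 25 (78.1%) held ACGTG or GCGTG, against 38.6% of 32851 promoters of the same length, and 4 (12.5%) held CACGTG, against 6.02%. ACGTG or GCGTG stood in the windows of 10 of the 14 members that were lower at E10.5 in WT and in those of 6 of the 7 that were higher. CACGTG stood in the windows of 2 of the 14 lower members and 2 of the 7 higher ones. These matches describe sequence only, and those of members rest on the start chosen for each.

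By level, 4 members had a mean of at least 1000 TPM over the 14 libraries (Ldha, Pkm, Eno1 and Aldoa), 9 lay from 100 to 1000 TPM, 12 from 10 to 100 TPM and 8 below 10 TPM. At least 1 TPM was reached in every library by 30 of the 33 members. The exceptions were Aldoc, Eno2 and Pdk4. The 33 genes together summed to 12241 to 13616 TPM in E9.25 WT and 12907 to 14755 TPM in E9.25 Gli3-/- libraries, or 1.22 to 1.48% of all TPM. At E10.5 the sum was 7774 to 8704 TPM in WT and 8282 to 9726 TPM in Gli3-/- libraries, or 0.777 to 0.973% of all TPM, and no E10.5 library reached an E9.25 library. Ldha was the most abundant member in the E9.25 WT libraries, and Pkm stood above it in all 4 E10.5 WT and all 3 E10.5 Gli3-/- libraries, in none of the 3 E9.25 WT libraries and in 1 of the 4 E9.25 Gli3-/- libraries. Levels of Tpi1, Gapdh, Pgk1, Pgam1, Eno1 and Ldha are uncertain because reads could be shared with a near-identical copy at 1 TPM or more. The largest such copy was Eno1b at a mean of 663 TPM, and adding the copies to their members changed no count of calls below.

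**Figure D1:**
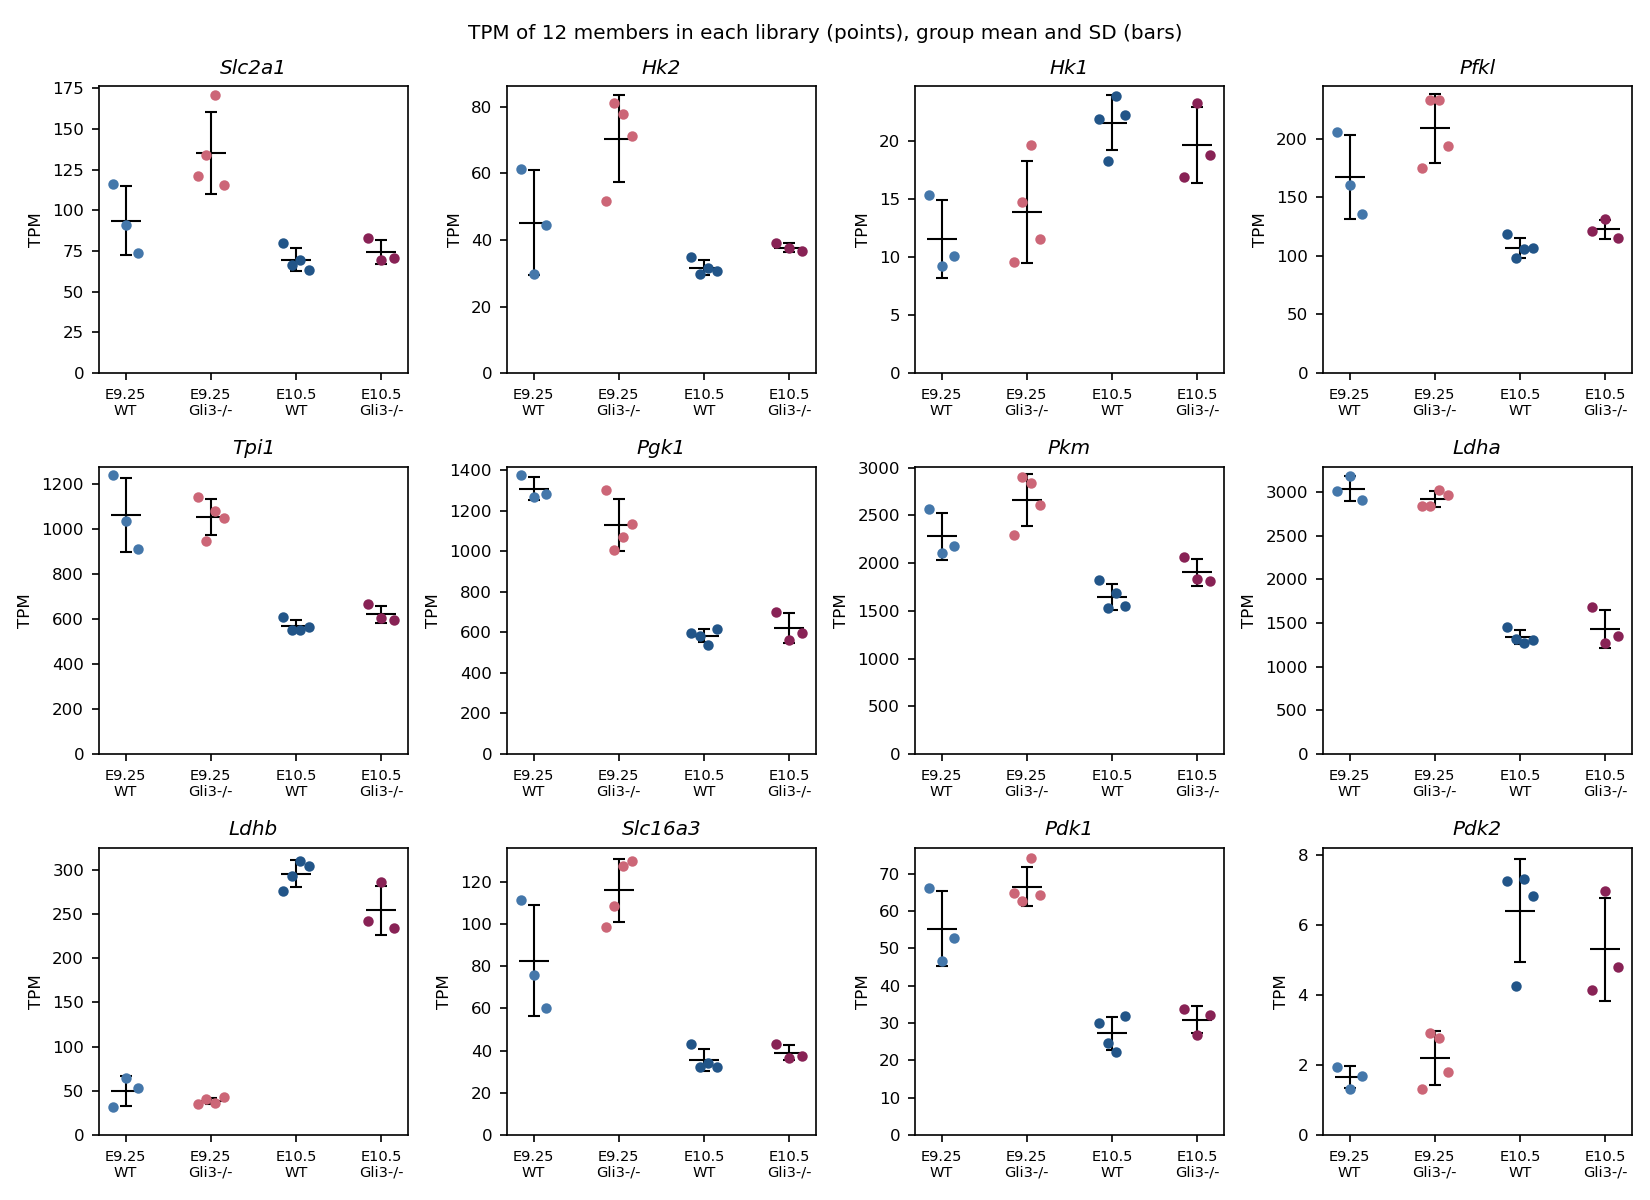
TPM (y axis, linear, from 0) of 12 members in each library by group, with points for libraries and bars for the group mean and SD (n = 3, 4, 4 and 3 libraries). Ldha, Pgk1, Tpi1, Slc16a3 and Pdk1 sit lower in every E10.5 library than in every E9.25 library, and Ldhb and Pdk2 sit higher.

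The first comparison asked how the pathway differs between the pre-HH bud and the anterior post-HH bud. In WT, 14 of 31 members tested (45.2%) fell and 7 (22.6%) rose at an adjusted p below 0.05 (limma on log2(TPM + 1), Benjamini-Hochberg over all genes tested), while 10 did not pass. Among all 15444 genes tested 48.7% passed, with 10.6% lower and 38.1% higher. The members' median log2 fold change was -0.36, against 0.34 over all genes. The members that fell were Gpi1, Pfkl, Aldoa, Tpi1, Pgk1, Pgam1, Eno1, Eno3, Pkm, Ldha, Slc16a1, Slc16a3, Pdk1 and Pdha1, which include the most abundant gene of every step from glucose 6-phosphate to lactate apart from Gapdh. Those that rose were Ldhb, Pdk2, Pfkfb2, Hk1, Aldoc, Pfkfb4 and Pfkm, of which all but Ldhb had group means of at most 37.8 TPM. Aldoc was below 1 TPM in every E9.25 WT library and was tested only through its E10.5 levels. All 21 called members had groups that did not overlap, and 41.5% of all genes were higher and 12% lower without overlap. When the library labelled E9.25 WT replicate 2 was left out, 15 members fell and 7 rose, with Hk2 (adjusted p = 0.00384) and Pfkp (adjusted p = 0.0368) called lower in addition and Gpi1 no longer called. Of all genes, 9.65% fell and 33.6% rose in that fit. The added 1 TPM makes fold changes of weakly expressed genes look smaller than they were, and ± after a log2 fold change is its standard error.

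In Gli3-/- buds, 17 of 32 members tested (53.1%) fell and 2 (6.2%) rose from E9.25 to E10.5. Over all 15434 genes tested, 9.17% fell and 15.8% rose, and the median log2 fold change was -0.47 for members and 0.06 for all genes. Of the 14 members that fell in WT, 13 also fell in Gli3-/- buds, Pdha1 being the exception, and both members that rose in Gli3-/- buds (Ldhb and Pdk2) rose in WT. These comparisons share no library. Slc2a1, Hk2, Pfkp and Pfkfb3 passed in Gli3-/- buds and not in WT. In WT, Hk2 and Pfkp also passed once the fit left out the library labelled E9.25 WT replicate 2, and Slc2a1 without E9.25 WT replicate 3 (adjusted p = 0.018). Without E9.25 WT replicate 1 the WT changes of Hk2, Pfkp and Slc2a1 shrank to -0.20, -0.33 and -0.23 (adjusted p = 0.335, 0.226 and 0.158). The interaction of stage and genotype passed for none of the 32 members tested in all 14 libraries, so no member was shown to differ in its stage change between genotypes.

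Because the median of all genes shifted by 0.34 in WT, the split of higher and lower depends on scaling. With the median gene set equal in every library, 4 members rose and 21 fell in WT, and 2 rose and 20 fell in Gli3-/- buds. Over all genes, that scaling gave 14.8% higher and 25.1% lower in WT and 14.0% and 16.5% in Gli3-/- buds. Under it no called member changed direction. Slc2a1, Hk2, Pfkp, Gapdh, Pfkfb3, Pdk3 and Dlat were then called lower in WT in addition, and Aldoc, Pfkfb4 and Pfkm were no longer called higher. Markers of other cell types moved with stage as well. The 5 muscle progenitor markers summed to 5.88 to 11.5 TPM at E9.25 and 27.8 to 52.0 TPM at E10.5 over both genotypes, and 4 of 4 tested rose in WT and 3 of 4 in Gli3-/- buds. The 5 macrophage markers summed to 1.75 to 5.19 TPM and 9.83 to 14.8 TPM, with 4 of 4 tested higher in WT and 3 of 4 in Gli3-/- buds. Over the E9.25 libraries alone, 2 muscle progenitor markers and 1 macrophage marker were expressed enough to be tested. The others entered the stage fits only with their E10.5 values, so these counts were partly set by that requirement. Of the flank and lateral plate mesoderm markers, 7 could be tested over the E9.25 libraries and 3 over the E10.5 libraries. The 9 flank and lateral plate mesoderm markers went from 24.1 to 63.2 TPM down to 9.30 to 13.6 TPM in WT and from 85.2 to 225 TPM down to 10.7 to 23.7 TPM in Gli3-/- libraries, with 4 of 6 tested lower and 1, Osr1, higher in WT, 6 of 7 lower in Gli3-/- buds and Nkx2-5 at 0 throughout. The 4 neural crest and glia markers summed to 1.01 to 4.01 TPM in E9.25 WT and 5.60 to 9.07 TPM in E10.5 WT libraries, with 2 of 2 tested higher, and to 3.36 to 5.14 TPM and 4.49 to 5.76 TPM in Gli3-/- libraries, with neither of 2 passing. Of the 7 endothelial markers, 2 were higher and none lower in WT, and 1 was higher and 2 lower in Gli3-/- buds. Of the 8 surface ectoderm markers, 2 were higher and 1 lower in WT and 3 higher and 3 lower in Gli3-/- buds. Of the stress and immediate early genes, 3 of 9 tested were higher and 3 lower in WT, and 2 of 8 were lower in Gli3-/- buds. Of the 7 limb mesenchyme markers, 3 were higher and 1 lower in WT, and 2 were higher and 2 lower in Gli3-/- buds. Of the 10 erythroid markers, 1 was lower and none higher in WT, and none passed in Gli3-/- buds. The part of these markers in the members' changes was not tested.

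**Figure D2:**
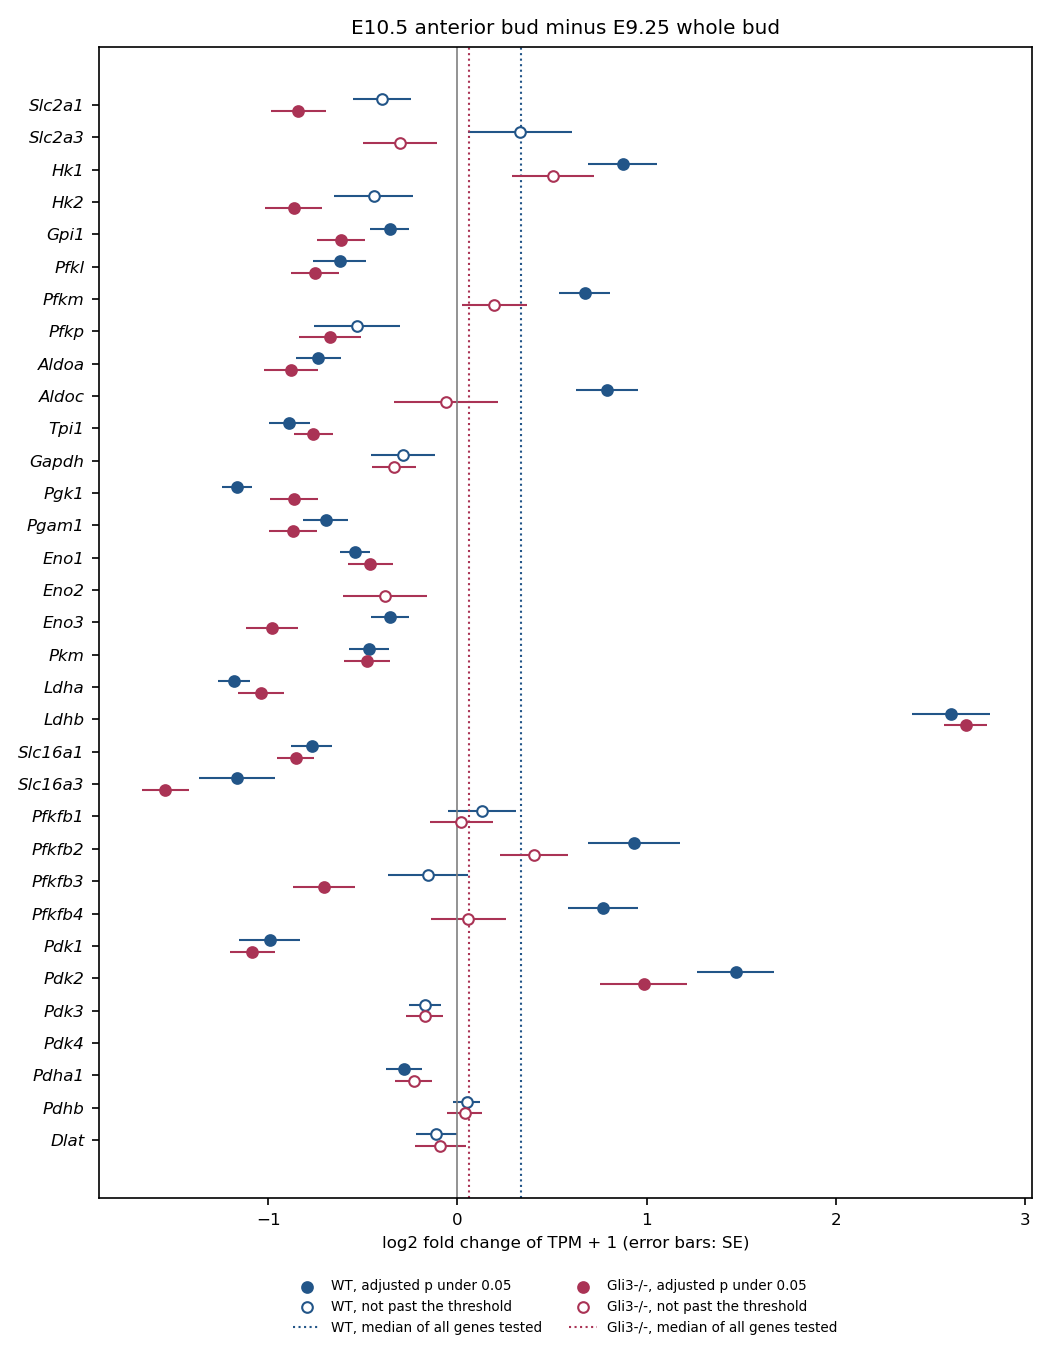
Log2 fold change of TPM + 1 from E9.25 whole buds to E10.5 anterior buds for each tested member (x axis, with SE bars) in WT (blue) and Gli3-/- buds (red), with filled points past an adjusted p of 0.05 and dotted lines at the median of all genes tested. Ldhb and Pdk2 stand to the right in both genotypes, and most enzymes from Gpi1 to Ldha, with Slc16a1, Slc16a3 and Pdk1, stand to the left.

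Glucose import came first among the steps. Slc2a1, the widespread glucose transporter GLUT1, measured 116, 90.8 and 73.9 TPM in E9.25 WT libraries 1 to 3 and 121, 134, 171 and 116 TPM in E9.25 Gli3-/- libraries 1 to 4. At E10.5, Slc2a1 stood at 80.0, 66.4, 69.2 and 63.5 TPM in WT libraries 1 to 4 and at 83.0, 69.7 and 70.9 TPM in Gli3-/- libraries 1 to 3. The WT groups overlapped through E9.25 WT replicate 3, the Gli3-/- groups did not overlap, and the log2 fold change between stages was -0.40 ± 0.15 (adjusted p = 0.0562) in WT and -0.84 ± 0.14 (adjusted p = 0.00198) in Gli3-/- buds. The difference between these changes was -0.44 ± 0.22 (adjusted p = 0.26). Over leave-one-out fits that difference ranged from -0.61 to -0.28 (adjusted p from 0.0711 to 0.428). Slc2a3, the high-affinity transporter GLUT3, passed in neither genotype, with group means from 50.8 to 76.9 TPM, and the sign of its WT change depended on the scaling.

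The hexokinases phosphorylate glucose and so trap it in the cell. Hk2, the inducible hexokinase, measured 61.4, 29.8 and 44.4 TPM in E9.25 WT libraries 1 to 3 and 51.8, 81.1, 77.8 and 71.2 TPM in E9.25 Gli3-/- libraries 1 to 4. At E10.5, Hk2 stood at 34.7, 29.8, 31.6 and 30.6 TPM in WT libraries 1 to 4 and at 39.1, 37.5 and 36.6 TPM in Gli3-/- libraries 1 to 3. The library labelled E9.25 WT replicate 2 was as low as the E10.5 WT libraries, and the stage change was -0.44 ± 0.21 (adjusted p = 0.105) in WT against -0.86 ± 0.15 (adjusted p = 0.00222) in Gli3-/- buds, with an interaction of -0.42 ± 0.27 (adjusted p = 0.358). Without that library, Hk2 fell by stage in WT as well (-0.71, adjusted p = 0.00384) and its interaction was -0.16. Without E9.25 WT replicate 1 the values went the opposite way, to a WT change of -0.20 (adjusted p = 0.335) and an interaction of -0.67 (adjusted p = 0.0769). Hk1, the housekeeping hexokinase, rose in WT, from 11.6 ± 3.34 TPM (SD, n = 3) to 21.6 ± 2.38 TPM (SD, n = 4) in WT, a log2 fold change of 0.87 ± 0.18 (adjusted p = 0.00571). In Gli3-/- buds it was 13.9 ± 4.40 TPM (SD, n = 4) and 19.7 ± 3.27 TPM (SD, n = 3), with overlapping groups and a change of 0.51 ± 0.22 (adjusted p = 0.12), which was called without E9.25 Gli3-/- replicate 3 (adjusted p = 0.0298).

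The upper enzymes turn the trapped sugar into triose phosphates. Gpi1, which turns glucose 6-phosphate into fructose 6-phosphate, measured 243, 253 and 201 TPM in E9.25 WT libraries 1 to 3 and 233, 315, 324 and 289 TPM in E9.25 Gli3-/- libraries 1 to 4. At E10.5, Gpi1 stood at 196, 166, 187 and 174 TPM in WT libraries 1 to 4 and at 200.1, 192 and 173 TPM in Gli3-/- libraries 1 to 3. Its stage change was -0.36 ± 0.10 (adjusted p = 0.0222) in WT and -0.61 ± 0.13 (adjusted p = 0.00621) in Gli3-/- buds. In WT the lowest E9.25 library lay just above the highest E10.5 library, and the call was lost without E9.25 WT replicate 1, the library labelled E9.25 WT replicate 2, or E10.5 WT replicate 2 or 4, with adjusted p up to 0.0599 over the leave-one-out fits.

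Pfkl, the most abundant phosphofructokinase, measured 206, 160.5 and 136 TPM in E9.25 WT libraries 1 to 3 and 175, 233, 233 and 194 TPM in E9.25 Gli3-/- libraries 1 to 4. At E10.5, Pfkl stood at 119, 98.0, 106 and 106 TPM in WT libraries 1 to 4 and at 122, 132 and 115 TPM in Gli3-/- libraries 1 to 3. It fell by stage in WT (-0.62 ± 0.14, adjusted p = 0.0078) and in Gli3-/- buds (-0.75 ± 0.12, adjusted p = 0.00168). The muscle-type Pfkm rose in WT, from 23.5 ± 4.18 TPM (SD, n = 3) to 37.8 ± 3.17 TPM (SD, n = 4) (0.67 ± 0.14, adjusted p = 0.00522), and its groups overlapped in Gli3-/- buds (0.20 ± 0.17, adjusted p = 0.449). Over leave-one-out fits the Gli3-/- change of Pfkm ranged from 0.05 to 0.31. Pfkp, the platelet type, stayed below 10 TPM and passed in Gli3-/- buds alone (-0.67 ± 0.16, adjusted p = 0.0132), where the call was lost without E10.5 Gli3-/- replicate 1 or 2 (adjusted p up to 0.0713), and the interaction for Pfkp was -0.14 ± 0.28 (adjusted p = 0.779), or -0.34 to 0.01 over leave-one-out fits. Both are less certain than Pfkl, since Pfkm overlaps Senp1 (mean 39.1 TPM) and Pfkp overlaps Pitrm1 (mean 88.8 TPM) on the opposite strand, and the use of strand in the deposited values is not given in the sources used here.

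Aldoa, the main aldolase, measured 1376, 1631 and 1226 TPM in E9.25 WT libraries 1 to 3 and 1343, 1677, 1785 and 1599 TPM in E9.25 Gli3-/- libraries 1 to 4. At E10.5, Aldoa stood at 946, 779.6, 876 and 777 TPM in WT libraries 1 to 4 and at 1039, 827 and 754 TPM in Gli3-/- libraries 1 to 3. Every E9.25 library stood above every E10.5 library of its genotype, with a change of -0.73 ± 0.12 (adjusted p = 0.00193) in WT and -0.88 ± 0.14 (adjusted p = 0.00149) in Gli3-/- buds. The brain-type Aldoc remained at 0.573 to 2.53 TPM in all libraries and rose in WT (0.79 ± 0.16, adjusted p = 0.00565). Testing needed at least 1 TPM in at least 3 libraries. Aldoc met this in WT only through the E10.5 group, since the E9.25 WT libraries held 0.656 to 0.944 TPM. Its WT call was also made with no filter. Tpi1, which interconverts the triose phosphates, measured 1238, 1032 and 910.4 TPM in E9.25 WT libraries 1 to 3 and 1139, 945, 1076 and 1047 TPM in E9.25 Gli3-/- libraries 1 to 4. At E10.5, Tpi1 stood at 606, 551, 549 and 565 TPM in WT libraries 1 to 4 and at 664, 602 and 593 TPM in Gli3-/- libraries 1 to 3. Its levels at E10.5 were 0.536 times those at E9.25 in WT and 0.589 times in Gli3-/- buds, with log2 fold changes of -0.89 ± 0.11 (adjusted p = 0.000557) and -0.76 ± 0.10 (adjusted p = 0.000569).

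The lower enzymes yield ATP. Gapdh, which reduces NAD while oxidizing glyceraldehyde 3-phosphate, measured 214, 362 and 342 TPM in E9.25 WT libraries 1 to 3 and 274, 322, 346 and 330.1 TPM in E9.25 Gli3-/- libraries 1 to 4. At E10.5, Gapdh stood at 253, 250.1, 241 and 231 TPM in WT libraries 1 to 4 and at 278, 255 and 225 TPM in Gli3-/- libraries 1 to 3. Library 1 of E9.25 WT lay below every E10.5 WT library while the other two lay above them, and Gapdh passed in neither genotype (-0.29 ± 0.17, adjusted p = 0.174 in WT and -0.33 ± 0.12, adjusted p = 0.0614 in Gli3-/- buds). The result turned on single libraries, since Gapdh was called lower in WT without E9.25 WT replicate 1 (-0.53, adjusted p = 0.00234) and in Gli3-/- buds without E9.25 Gli3-/- replicate 1 (adjusted p = 0.0145). Its copy Gapdh-ps15 was listed at 100.2 to 146 TPM.

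Pgk1, which makes ATP from 1,3-bisphosphoglycerate, measured 1373, 1266 and 1282 TPM in E9.25 WT libraries 1 to 3 and 1304, 1007, 1070.2 and 1133 TPM in E9.25 Gli3-/- libraries 1 to 4. At E10.5, Pgk1 stood at 597, 584, 539 and 614 TPM in WT libraries 1 to 4 and at 702, 563 and 595 TPM in Gli3-/- libraries 1 to 3. The groups lay far apart in both genotypes, and Pgk1 fell by stage with a log2 fold change of -1.16 ± 0.08 (adjusted p = 4.79e-05) in WT and -0.86 ± 0.12 (adjusted p = 0.000739) in Gli3-/- buds. The gene lies at chrX:106187100-106203699 on the X chromosome in GRCm38. Pgam1, the phosphoglycerate mutase, measured 461, 463 and 356 TPM in E9.25 WT libraries 1 to 3 and 435, 593, 584 and 518 TPM in E9.25 Gli3-/- libraries 1 to 4. At E10.5, Pgam1 stood at 286, 238, 280.2 and 244 TPM in WT libraries 1 to 4 and at 302, 299.9 and 266 TPM in Gli3-/- libraries 1 to 3. It fell in both genotypes as well (-0.70 ± 0.12, adjusted p = 0.00256 and -0.87 ± 0.13, adjusted p = 0.000756).

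Eno1, the main enolase, measured 1797, 1757 and 1755 TPM in E9.25 WT libraries 1 to 3 and 1766, 1992, 2172 and 1961 TPM in E9.25 Gli3-/- libraries 1 to 4. At E10.5, Eno1 stood at 1319, 1197, 1229 and 1123 TPM in WT libraries 1 to 4 and at 1602, 1336 and 1367 TPM in Gli3-/- libraries 1 to 3. Its stage change was -0.54 ± 0.08 (adjusted p = 0.00138) in WT and -0.46 ± 0.12 (adjusted p = 0.0172) in Gli3-/- buds, and the Gli3-/- call was lost without E10.5 Gli3-/- replicate 2 or 3 (adjusted p up to 0.091). Eno3, the muscle-type enolase, measured 102, 92.2 and 81.6 TPM in E9.25 WT libraries 1 to 3 and 109, 125, 122 and 97.3 TPM in E9.25 Gli3-/- libraries 1 to 4. At E10.5, Eno3 stood at 72.7, 71.6, 75.1 and 65.8 TPM in WT libraries 1 to 4 and at 62.4, 62.3 and 46.8 TPM in Gli3-/- libraries 1 to 3. Its stage change was -0.36 ± 0.10 (adjusted p = 0.0191) in WT, where leaving out E10.5 WT replicate 4 ended the call (adjusted p = 0.0564), and -0.98 ± 0.14 (adjusted p = 0.000594) in Gli3-/- buds. All 3 E10.5 Gli3-/- values of Eno3 lay below all 4 E10.5 WT values. The neuronal Eno2 stayed between 0.327 and 1.63 TPM and was too low to be tested by stage in WT.

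Pkm, the pyruvate kinase that makes the last ATP of the pathway, measured 2567, 2103 and 2175 TPM in E9.25 WT libraries 1 to 3 and 2297, 2906, 2837 and 2610.4 TPM in E9.25 Gli3-/- libraries 1 to 4. At E10.5, Pkm stood at 1822, 1529.9, 1687 and 1553 TPM in WT libraries 1 to 4 and at 2068, 1838 and 1809 TPM in Gli3-/- libraries 1 to 3. Its stage change was -0.47 ± 0.10 (adjusted p = 0.00746) in WT and -0.48 ± 0.12 (adjusted p = 0.0165) in Gli3-/- buds, and the Gli3-/- call was lost without E10.5 Gli3-/- replicate 2 or 3 (adjusted p up to 0.0789). Quantile normalization ended both calls, with a change of -0.25 (adjusted p = 0.149) in WT. Gene tables do not separate its M1 and M2 splice forms.

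The largest stage changes in both directions stood at the lactate step. Ldha (chr7:46841475-46855627, plus strand, an interval that holds the RefSeq start used above) measured 3015, 3187 and 2904 TPM in E9.25 WT libraries 1 to 3 and 2837, 2844, 3023 and 2969 TPM in E9.25 Gli3-/- libraries 1 to 4. At E10.5, Ldha stood at 1459, 1316, 1273 and 1305 TPM in WT libraries 1 to 4 and at 1679, 1267 and 1351 TPM in Gli3-/- libraries 1 to 3. Every E9.25 library held at least 2837 TPM and every E10.5 library at most 1679 TPM, a log2 fold change of -1.18 ± 0.08 (adjusted p = 5.59e-05) in WT and -1.04 ± 0.12 (adjusted p = 0.000209) in Gli3-/- buds. Ldhb (chr6:142490249-142507957, minus strand) measured 31.4, 64.1 and 53.7 TPM in E9.25 WT libraries 1 to 3 and 35.4, 40.5, 36.2 and 42.5 TPM in E9.25 Gli3-/- libraries 1 to 4. At E10.5, Ldhb stood at 275, 293, 309 and 304 TPM in WT libraries 1 to 4 and at 242, 286 and 235 TPM in Gli3-/- libraries 1 to 3. Its E10.5 mean was 5.94 times its E9.25 mean in WT and 6.57 times in Gli3-/- buds, with log2 fold changes of 2.60 ± 0.21 (adjusted p = 7.74e-05) and 2.68 ± 0.11 (adjusted p = 2.78e-07). The ratio of Ldha to Ldhb went from 49.7 to 96.0 in the E9.25 WT libraries to 4.12 to 5.30 in the E10.5 WT libraries. In Gli3-/- libraries it went from 69.8 to 83.6 to 4.44 to 6.94. The promoters printed above hold 2 CACGTG motifs for Ldha and none for Ldhb, while that of Pdk2, which rose, holds 1.

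Slc16a3, the transporter MCT4 that exports lactate from glycolytic cells, measured 111, 75.9 and 60.3 TPM in E9.25 WT libraries 1 to 3 and 98.7, 108, 127 and 129.5 TPM in E9.25 Gli3-/- libraries 1 to 4. At E10.5, Slc16a3 stood at 43.0, 32.4, 34.003 and 32.0 TPM in WT libraries 1 to 4 and at 42.9, 36.7 and 37.3 TPM in Gli3-/- libraries 1 to 3. It fell with a log2 fold change of -1.17 ± 0.20 (adjusted p = 0.00254) in WT and -1.54 ± 0.12 (adjusted p = 1.46e-05) in Gli3-/- buds, the largest decrease of any member in the latter. Slc16a1, the transporter MCT1, measured 92.6, 70.9 and 81.4 TPM in E9.25 WT libraries 1 to 3 and 97.0, 95.1, 103 and 94.2 TPM in E9.25 Gli3-/- libraries 1 to 4. At E10.5, Slc16a1 stood at 49.8, 45.1, 44.7 and 49.2 TPM in WT libraries 1 to 4 and at 55.7, 49.2 and 55.4 TPM in Gli3-/- libraries 1 to 3. The change was -0.77 ± 0.11 (adjusted p = 0.00107) in WT and -0.85 ± 0.10 (adjusted p = 0.00017) in Gli3-/- buds, so both lactate carriers were lower in every E10.5 library than in any E9.25 library.

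The PFKFB enzymes set the level of fructose 2,6-bisphosphate, the strongest activator of phosphofructokinase. Pfkfb3, whose kinase activity dominates, measured 20.9, 11.6 and 13.1 TPM in E9.25 WT libraries 1 to 3 and 18.5, 26.2, 29.5 and 21.3 TPM in E9.25 Gli3-/- libraries 1 to 4. At E10.5, Pfkfb3 stood at 14.5, 10.6, 12.5 and 15.4 TPM in WT libraries 1 to 4 and at 15.1, 13.5 and 13.6 TPM in Gli3-/- libraries 1 to 3. The WT groups overlapped (-0.15 ± 0.21, adjusted p = 0.556), and Pfkfb3 fell in Gli3-/- buds (-0.70 ± 0.16, adjusted p = 0.01) with an interaction of -0.55 ± 0.28 (adjusted p = 0.261). Pfkfb2 and Pfkfb4 rose in WT (0.93 ± 0.24, adjusted p = 0.0142 and 0.77 ± 0.19, adjusted p = 0.0107) at group means of 2.73 to 6.55 TPM, and neither passed in Gli3-/- buds. The WT call of Pfkfb2 was lost with quantile normalization (0.40, adjusted p = 0.118) and with no filter, and that of Pfkfb4 with quantile normalization and an equal median gene. Pfkfb1 passed in neither genotype at group means of 7.82 to 8.68 TPM. Pfkfb2 and Pfkfb1 overlap Yod1 and Apex2 on the opposite strand.

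The kinases that switch off pyruvate dehydrogenase did not move as a group. Pdk1, a well-known target of hypoxia-inducible factor, measured 66.2, 46.5 and 52.8 TPM in E9.25 WT libraries 1 to 3 and 64.7, 62.7, 74.2 and 64.3 TPM in E9.25 Gli3-/- libraries 1 to 4. At E10.5, Pdk1 stood at 30.0, 24.7, 22.3 and 31.9 TPM in WT libraries 1 to 4 and at 33.7, 26.9 and 32.2 TPM in Gli3-/- libraries 1 to 3. It fell with a log2 fold change of -0.99 ± 0.16 (adjusted p = 0.00204) in WT and -1.08 ± 0.12 (adjusted p = 0.000118) in Gli3-/- buds, and no E10.5 library reached an E9.25 library. Pdk2, found in most tissues, measured 1.94, 1.31 and 1.69 TPM in E9.25 WT libraries 1 to 3 and 1.32, 2.92, 2.78 and 1.81 TPM in E9.25 Gli3-/- libraries 1 to 4. At E10.5, Pdk2 stood at 7.26, 4.25, 7.33 and 6.82 TPM in WT libraries 1 to 4 and at 4.15, 6.97 and 4.81 TPM in Gli3-/- libraries 1 to 3. It rose by stage, with changes of 1.47 ± 0.20 (adjusted p = 0.000992) in WT and 0.98 ± 0.23 (adjusted p = 0.0106) in Gli3-/- buds, and the latter call was lost without E10.5 Gli3-/- replicate 2 (adjusted p = 0.0633), the library with the highest Pdk2 of its group.

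Pdk3, the most abundant of the kinases by the mean over all libraries, measured 54.8, 55.7 and 50.6 TPM in E9.25 WT libraries 1 to 3 and 52.8, 58.2, 61.2 and 55.1 TPM in E9.25 Gli3-/- libraries 1 to 4. At E10.5, Pdk3 stood at 46.9, 46.3, 47.8 and 49.2 TPM in WT libraries 1 to 4 and at 51.8, 49.6 and 49.1 TPM in Gli3-/- libraries 1 to 3. Its groups did not overlap between stages in either genotype, but the differences were small and did not pass (-0.17 ± 0.09, adjusted p = 0.122 in WT and -0.17 ± 0.10, adjusted p = 0.231 in Gli3-/- buds). Pdk4 was listed at 0.167 to 1.04 TPM and was not tested in any comparison. Of the subunits of the complex, Pdha1 (E1 alpha) passed in WT (-0.28 ± 0.09, adjusted p = 0.0355), a call that only 1 of 7 leave-one-out fits kept (adjusted p up to 0.0979). Pdhb (E1 beta) and Dlat (the E2 acetyltransferase) passed in neither genotype, with stage changes from -0.11 to 0.05, and both changed sign under some alternatives.

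Shares within paralog families do not depend on the scaling of a library. Ldhb made up 1.61% ± 0.504 (SD, n = 3) of summed Ldha and Ldhb TPM in E9.25 WT libraries and 18.1% ± 1.60 (SD, n = 4) in E10.5 WT libraries. In Gli3-/- libraries its share was 1.31% ± 0.118 (SD, n = 4) at E9.25 and 15.3% ± 2.93 (SD, n = 3) at E10.5. Hk1 held 20.7% ± 2.62 (SD, n = 3) of hexokinase TPM in E9.25 WT libraries and 40.5% ± 2.50 (SD, n = 4) in E10.5 WT libraries, with 16.3% ± 2.68 (SD, n = 4) and 34.2% ± 4.06 (SD, n = 3) in the Gli3-/- libraries.

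Shares moved with stage at some other steps too. Pfkm went from 11.958% ± 0.533 (SD, n = 3) to 25.3% ± 1.41 (SD, n = 4) of phosphofructokinase TPM in WT and from 12.9% ± 1.27 (SD, n = 4) to 22.3% ± 0.479 (SD, n = 3) in Gli3-/- libraries. Pdk1 went from 49.5% ± 4.36 (SD, n = 3) to 33.2% ± 3.38 (SD, n = 4) of the kinases in WT and from 52.7% ± 1.62 (SD, n = 4) to 35.6% ± 3.07 (SD, n = 3) in Gli3-/- libraries. For the leading member of the lactate dehydrogenases, hexokinases, phosphofructokinases, PFKFB enzymes, glucose transporters and pyruvate dehydrogenase kinases, the shares of the E9.25 and E10.5 libraries did not overlap in either genotype. An exact two-sided permutation test of 3 against 4 libraries cannot go below p = 0.0571, the value these comparisons reached, and with 36 tests the adjusted value was 0.114, so this test cannot take them past 0.05. The Aldoa share of aldolases overlapped between stages in Gli3-/- libraries. In WT, the Eno1 share of enolases and the Slc16a1 share of monocarboxylate transporters overlapped. Both were higher at E10.5 without overlap in Gli3-/- libraries, by 1.61 and 12.1 percentage points.

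**Figure D3:**
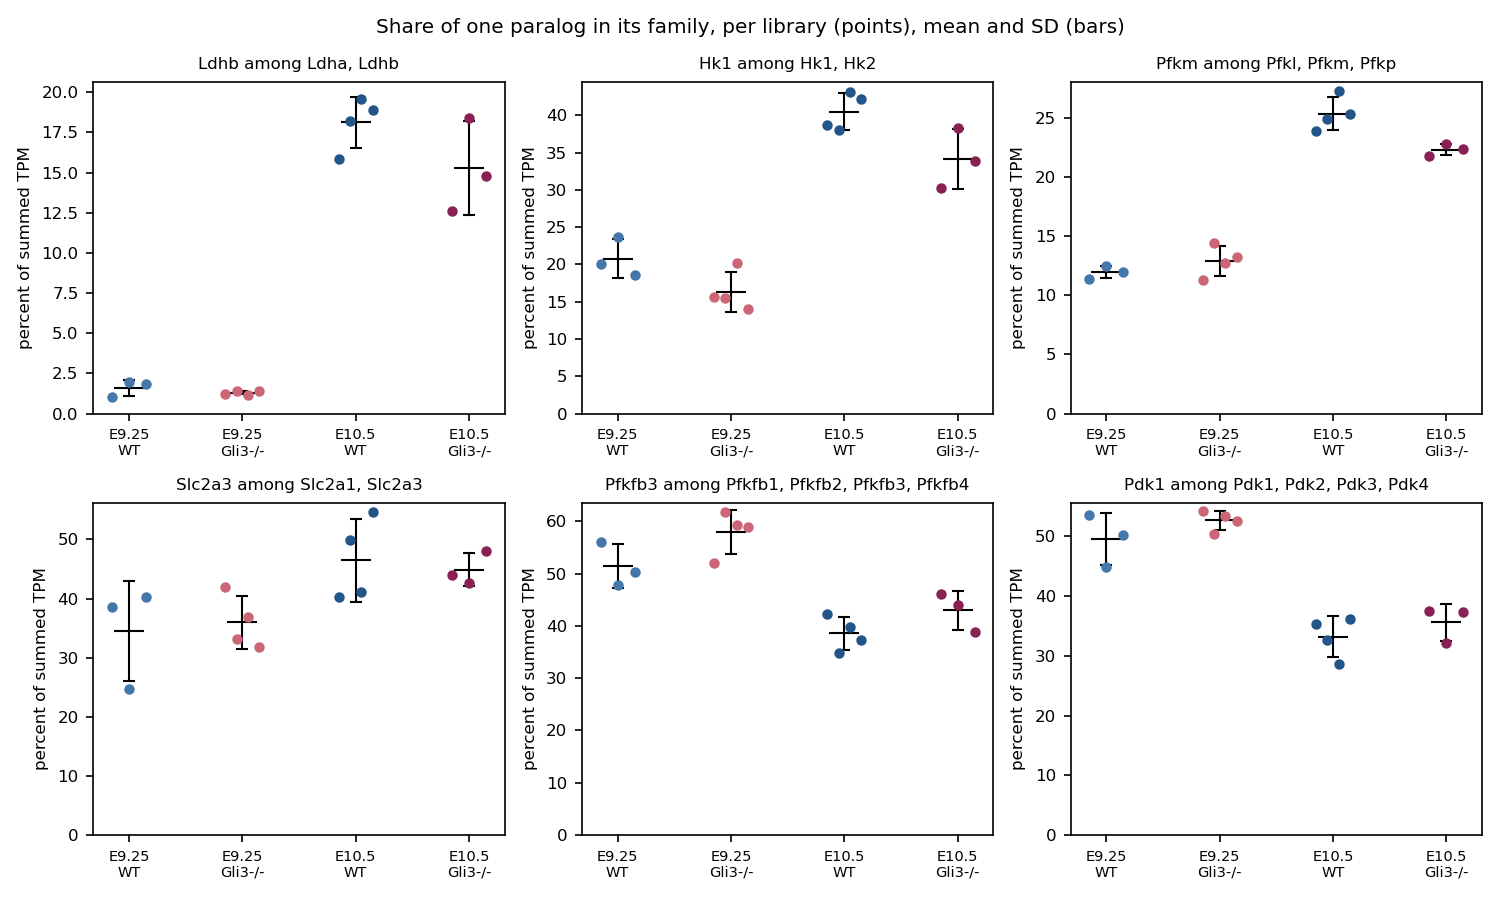
Share (y axis, percent of the summed TPM of the family, from 0) of a single paralog in each library by group, with points for libraries and bars for mean and SD (n = 3, 4, 4 and 3). Ldhb, Hk1 and Pfkm take larger shares, and Pfkfb3 and Pdk1 smaller shares, in every E10.5 library than in any E9.25 library of their genotype.

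The second comparison asked whether the loss of Gli3 moves the pathway. At E9.25, none of 31 members tested passed by limma, against 0.136% of 14760 genes (0.108% higher and 0.0271% lower). An unadjusted p below 0.05 was found for 4 members, all higher in Gli3-/- libraries, and for 22% of all genes. These were Hk2 (0.67 ± 0.24, adjusted p = 0.217), Pfkfb3 (0.64 ± 0.23, adjusted p = 0.217), Slc2a1 (0.54 ± 0.18, adjusted p = 0.217) and Slc16a3 (0.52 ± 0.20, adjusted p = 0.217), each with overlapping groups. Leaving out 1 library moved these differences to 0.41 (the library labelled E9.25 WT replicate 2) to 0.92 (E9.25 WT replicate 1) for Hk2, and to 0.32 (E9.25 WT replicate 3) to 0.76 (E9.25 WT replicate 1) for Slc16a3. A model of all 14 libraries called Hk2 and Slc2a1 higher and no other member, and it called 7.04% of all genes higher. Higher point estimates were found for 26 of the 31 members, but the median of all genes was itself 0.23, and the members' median was 0.25, with 17 members above the median gene and 14 below it. Slc16a1 was the member higher without overlap and Pdhb the member lower without overlap, against 9.97% and 3.36% of all genes.

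The E9.25 Gli3-/- libraries also differed in other markers. The flank and lateral plate mesoderm markers summed to 85.2 to 225 TPM in them against 24.1 to 63.2 TPM in the WT libraries, with 3 of 7 tested higher, and the 7 endothelial markers summed to 114 to 169.5 TPM against 62.3 to 99.6 TPM, with none of 7 passing. Of the 7 limb mesenchyme markers, 1 was lower and none higher. The part of these markers in the members' values was not tested. Again no member passed when the library labelled E9.25 WT replicate 2 was left out.

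At E10.5, where 4.77% of 15654 genes passed (1.84% higher and 2.93% lower), 1 of 31 members did. Dlat, the acetyltransferase core of pyruvate dehydrogenase, measured 35.5, 31.2, 31.6 and 32.5 TPM in E10.5 WT libraries 1 to 4 and 39.5, 40.1 and 41.7 TPM in E10.5 Gli3-/- libraries 1 to 3, so that the groups did not overlap. The log2 fold change was 0.30 ± 0.07 (adjusted p = 0.0489), and each of the 7 leave-one-out fits lost the call, with adjusted p from 0.0595 to 0.196. At E9.25, Dlat measured 38.1, 37.2 and 31.2 TPM in WT and 35.1, 52.7, 44.5 and 41.9 TPM in Gli3-/- libraries and overlapped.

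Pdhb, which codes for the E1 beta subunit of the same complex, stood at 129 to 136 TPM in E10.5 WT and 114 to 117 TPM in E10.5 Gli3-/- libraries, with no overlap and a change of -0.19 ± 0.06 (adjusted p = 0.0956). At E9.25 it stood at 123 to 130.3 TPM in WT and 104 to 116 TPM in Gli3-/- libraries, again with no overlap and a change of -0.18 ± 0.11 (adjusted p = 0.316). Pdhb was chosen for mention after its values were seen, passed in neither comparison, and was called lower at E10.5 when samples were weighted by quality. The libraries of each age were separate.

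Among the other members at E10.5, Hk2 and Eno1 were higher without overlap (0.25 ± 0.08, adjusted p = 0.112 and 0.23 ± 0.09, adjusted p = 0.19), and Eno3 and Aldoc lower without overlap (-0.32 ± 0.11, adjusted p = 0.13 and -0.48 ± 0.17, adjusted p = 0.153). Without E10.5 Gli3-/- replicate 3 the Eno3 difference was -0.19, and without E10.5 Gli3-/- replicate 1 the Eno1 difference was 0.15. Including Dlat and Pdhb, 3 members were higher and 3 lower without overlap, against 7.87% and 11.5% of all genes. An unadjusted p below 0.05 was reached by 6 members with higher and 4 with lower values, against 19.6% of all genes. Markers moved with genotype at this age too. The 7 limb mesenchyme markers summed to 966 to 1196 TPM in E10.5 WT and 730.1 to 791 TPM in E10.5 Gli3-/- libraries, with 5 of 7 lower, none higher and none at 0. Of 7 stress and immediate early genes tested, 2 were higher (Junb and Ier2), with sums of 109.7 to 133 TPM in WT and 142 to 186 TPM in Gli3-/- libraries. The 8 surface ectoderm markers summed to 215 to 282 TPM and 329 to 374 TPM, with Fgf8 higher, the other 7 not past the threshold and a median log2 fold change of -0.18 over the 8. The 5 muscle progenitor markers summed to 43.5 to 52.0 TPM in E10.5 WT and 27.8 to 38.8 TPM in E10.5 Gli3-/- libraries, with 1 of 4 tested lower (Met). The part of these markers in the values of Dlat and Pdhb was not tested. Globin transcripts took 4.29% of TPM in E10.5 Gli3-/- replicate 3 and 0.859 to 2.94% in the other 13 libraries, and the counts of called members did not change when mitochondrial and globin genes were left out of the total.

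The interaction of stage and genotype was tested for 32 members and passed for none, against 2.13% of 16368 genes (0.477% higher and 1.65% lower). The smallest p belonged to Eno3, which fell further by stage in Gli3-/- buds (-0.62 ± 0.17, adjusted p = 0.0802), followed by Pfkfb4 (-0.71 ± 0.27, adjusted p = 0.18) and Aldoc (-0.85 ± 0.34, adjusted p = 0.191), and these 3 were the members with an unadjusted p below 0.05, against 21% of all genes. Ldha (0.14 ± 0.14, adjusted p = 0.529) and Ldhb (0.08 ± 0.25, adjusted p = 0.864) had 95% intervals of -0.15 to 0.44 and -0.45 to 0.61. Over leave-one-out fits the values ranged from 0.025 to 0.228 for Ldha and from -0.13 to 0.373 for Ldhb. The sign for Ldhb changed in 3 of those fits. Leaving out E9.25 WT replicate 1 or E9.25 Gli3-/- replicate 4 gave 1 member called lower, Eno3, and leaving out any other library gave none. Of all genes, the fits that called Eno3 had 7.87% and 2.48% lower.

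**Figure D4:**
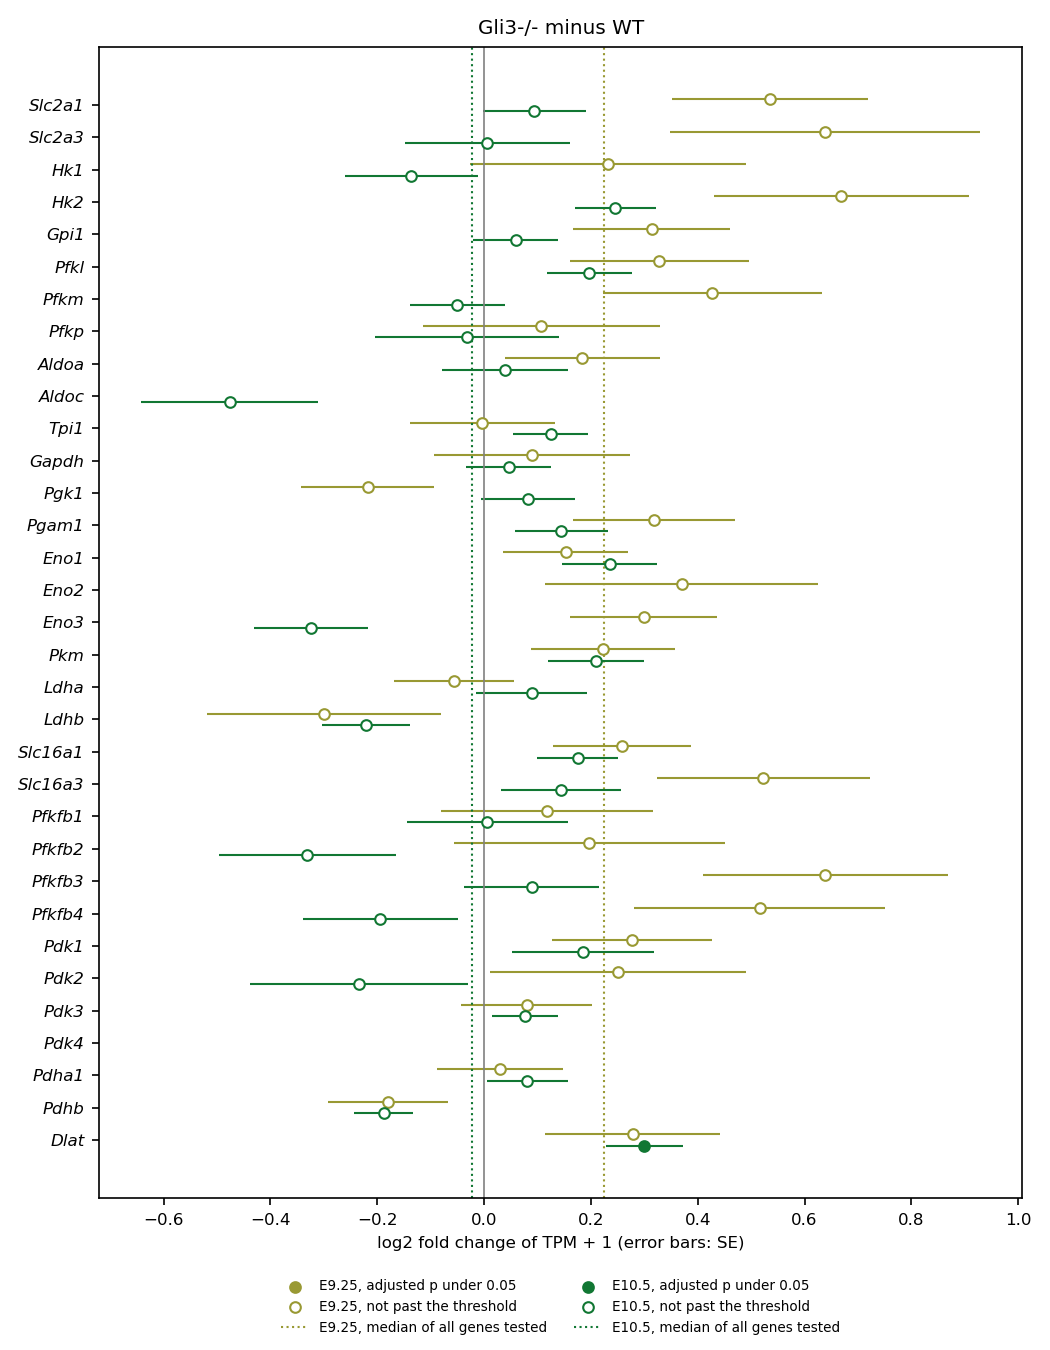
Log2 fold change of TPM + 1 in Gli3-/- against WT buds for each tested member (x axis, with SE bars) at E9.25 (olive) and E10.5 (green), with filled points past an adjusted p of 0.05 and dotted lines at the median of all genes tested. Dlat at E10.5 is the single filled point, and Pdhb is lower at both ages with open points.

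Other genes of the same routes were read from lists. Among 18 further paralogs of the glycolytic genes, 10 were expressed enough to be tested in WT, of which 5 rose by stage and 1 fell, beside 38.1% and 10.6% of all genes. These included Pgam2 (1.46 ± 0.18, adjusted p = 0.000581), Slc2a4 (1.38 ± 0.15, adjusted p = 0.000381), Slc16a7 (1.36 ± 0.16, adjusted p = 0.000499) and Gapdhs (1.31 ± 0.24, adjusted p = 0.00322), at mean levels in E10.5 WT of 2.91, 13.5, 2.06 and 2.25 TPM. In Gli3-/- buds 4 of 9 rose and 2 fell, beside 15.8% and 9.17% of all genes. Of the gluconeogenesis list, the 3 genes tested rose in WT, Pck2 most (0.67 ± 0.17, adjusted p = 0.0114), and none of 3 passed in Gli3-/- buds. Of 7 genes of mitochondrial pyruvate handling, Mpc2, a subunit of the pyruvate carrier, rose in both genotypes (0.89 ± 0.11, adjusted p = 0.000678 in WT and 0.63 ± 0.13, adjusted p = 0.00494 in Gli3-/- buds). The second carrier subunit, Mpc1, passed in Gli3-/- buds (0.76 ± 0.15, adjusted p = 0.00494) and Pdp2, a phosphatase that switches the complex on, in WT (0.68 ± 0.23, adjusted p = 0.0374). With loss of Gli3, none of these 3 lists held a called gene at either age.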

How the data were processed

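Total RNA of pooled forelimb buds was extracted in TRIzol, made into libraries with the NEBNext Ultra II RNA kit and sequenced as single reads of 100 bases, and the authors aligned the reads with HISAT2. The deposited gene tables hold, for each library, coverage (signal), FPKM and TPM for each gene ID, and no counts; coverage and FPKM, as deposited, served only to estimate the depth, and TPM, as the authors normalized it, gave every other value. Chromatin libraries of the series were not used here. The version and annotation behind the tables are not given in the sources used here, and 33 of 33 members overlapped the RefSeq gene of their symbol in GRCm38.p6.

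DESeq2, which the authors used, needs counts, so log2(TPM + 1) was tested with limma 3.58.1 (R 4.3.3; lmFit, eBayes with trend; two-sided; Benjamini-Hochberg; threshold 0.05) over genes with at least 1 TPM in at least 3 libraries fitted, separately for each comparison and with an interaction over all 14 libraries. Shares within families were tested by exact permutation (SciPy 1.17.1). The fit was tested on simulated data. Depth intervals are not given because the tables hold no counts.

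The members and lists were chosen with earlier results of these data known. Values in every library are given for the most abundant member of each paralog family, for Gpi1, Tpi1, Gapdh, Pgk1, Pgam1 and Pkm, and for up to 6 members per comparison with the largest change among those that passed. At most 4 genes are named from each other list. Alternatives were other pseudocounts, filters, scalings and weights, a model of all libraries, a replicate block and leaving out each library. Promoters came from RefSeq (GRCm38.p6), with 32 of 33 members matched.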

Additional observations from a re-analysis of the deposited data

Results flagged for a closer look

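In the groups of 4 libraries, 4 of 68 sets of values (33 members and their sum, in each of 2 groups) held a library whose gap to the nearest other, divided by the range of the group, exceeded Dixon's critical value of 0.829. Chance gives about 1 in 20 such sets. E9.25 Gli3-/- replicate 3 held 3 of them. Its log2(TPM + 1) was 3.35 for Pfkp, against 2.90 to 2.96 in the other libraries of the group, and 2.37 for Pfkfb2, against 1.89 to 1.97. For Pdhb it was 6.71, against 6.85 to 6.87, the lowest of the group. E10.5 WT replicate 2 held the last, with a log2(TPM + 1) of 2.39 for Pdk2, against 2.97 to 3.06. Without E9.25 Gli3-/- replicate 3, Pfkp still fell by stage in Gli3-/- buds, and without E10.5 WT replicate 2, Pdk2 still rose in WT. No member moved without overlap in opposite directions under the same contrast.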

How the results depend on the processing

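TPM rest on the authors' counting, which is not described for shared or antisense reads, and no counts were at hand, so DESeq2 and count-based depth intervals were not run. The depth behind each value is therefore known only as the estimate given with the libraries. In WT, leaving out 1 library gave 7 members higher each time and 11 to 15 lower, and no filter gave 6 and 10. Of all genes, leave-one-out fits had 26.2 to 44.5% higher and 7.81 to 9.96% lower, and no filter had 7.48% and 2.21%. Quantile normalization and an equal median gene each left 4 higher, with 17 and 21 lower, and median-of-ratios scaling gave 6 and 21. Of all genes, quantile normalization had 17.3% higher and 19.7% lower. An equal median gene had 14.8% and 25.1%, and median-of-ratios scaling had 20.6% and 21.2%. In Gli3-/- buds, leave-one-out fits gave 1 to 3 higher and 14 to 18 lower, no filter left 1 higher and 12 lower, a filter of 5 TPM left 1 higher, and sample weights gave 4 higher. Of all genes there, leave-one-out fits had 8.39 to 19% higher and 5.85 to 12.7% lower. No filter had 4.03% higher and 1.81% lower, the filter of 5 TPM had 15.2% higher, and sample weights had 26.8% higher. For loss of Gli3, the count at E9.25 was 2 higher in the model of all 14 libraries (7.04% of all genes) and 0 in every other fit. At E10.5 the count of 1 higher went to 0 with no filter, no trend, quantile normalization, sample weights, the model of all libraries and each leave-one-out fit, and sample weights gave 1 lower (5.69% of all genes). The interaction had 0 to 1 lower in leave-one-out fits, beside 0.677 to 7.87% of all genes. Over all genes, the number called moved from 20 to between 0 (no filter) and 1185 (model of all 14 libraries) for loss of Gli3 at E9.25, where leaving out E9.25 WT replicate 1 gave 196. At E10.5 it moved from 747 to between 68 (no filter) and 1356 (sample weights). By stage in WT it moved from 7520 to between 4552 (no filter) and 8556 (sample weights), with 4699 from the replicate block. By stage in Gli3-/- buds it moved from 3853 to between 2129 (without E10.5 Gli3-/- replicate 2) and 6520 (sample weights). For the interaction it moved from 348 to between 42 (replicate block) and 1433 (without E9.25 WT replicate 1). The causes were not tested.

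Replicate numbers in the titles did not pair the libraries: same-numbered libraries correlated at -0.266 to 0.13 in their deviations from the group means. The deposited tables number the E10.5 Gli3-/- libraries differently from the titles. By those numbers the correlations with E10.5 WT were 0.05, 0.171 and 0.292, against -0.16 to 0.123 for the other E10.5 pairs. Whether those numbers pair the E10.5 libraries was not tested, and the main fit held no block. With a replicate block, members higher and lower were 7 and 11 in WT and 2 and 17 in Gli3-/- buds by stage, 0 and 0 at E10.5 for loss of Gli3 (also 0 with the numbers of the deposited tables, an alternative chosen after seeing the data, as were the equal median gene and the added copies), and 0 at E9.25 and in the interaction. Of all genes, the stage fits with that block had 24.2% higher and 6.19% lower in WT and 15.1% and 9.64% in Gli3-/- buds.

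No called member changed direction under any alternative. Stage calls lost in WT were those of Pfkl, Gpi1, Eno3, Pdha1 and Pfkfb2 with no filter, of Pkm, Gpi1, Pdha1, Aldoc, Pfkfb2 and Pfkfb4 with quantile normalization, of Pfkm with median-of-ratios scaling, of Pfkm, Pfkfb4 and Aldoc with an equal median gene, of Gpi1 with sample weights, of Pdha1 with no trend and of Gpi1, Eno3 and Pdha1 with the replicate block. Those lost in Gli3-/- buds were of Gpi1, Pfkp, Eno1, Pkm, Pfkfb3 and Pdk2 with no filter, of Eno1 and Pkm with quantile normalization and of Eno1 with the replicate block. Members that did not pass and changed sign by stage in WT were Slc2a3 (-0.007 with median-of-ratios scaling and -0.089 with an equal median gene), Pdhb (-0.295 and -0.372 under the same scalings), Pfkfb1 (-0.341, -0.178 and -0.29 with quantile, median-of-ratios and equal median scaling, and -0.009 to 0.238 in leave-one-out fits), Pfkfb3 (-0.315 to 0.082 in leave-one-out fits) and Dlat (0.022 with sample weights). In Gli3-/- buds they were Pdhb (-0.031 and -0.062 with median-of-ratios scaling and an equal median gene), Pfkfb1 (-0.121, -0.046 and -0.082 with quantile, median-of-ratios and equal median scaling, -0.039 with the replicate block, and -0.1 to 0.134 in leave-one-out fits), Pfkfb4 (-0.091 and -0.043 with quantile and equal median scaling, and -0.06 to 0.208 in leave-one-out fits), Aldoc (0.271 with sample weights, and -0.254 to 0.109 in leave-one-out fits) and Dlat (-0.186 to 0.004 in leave-one-out fits). Small differences in shares changed sign. The difference in the Slc2a1 share of glucose transporters with loss of Gli3 at E9.25 was -1.45 percentage points, and 3.44 after leaving out the library labelled E9.25 WT replicate 2.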

Other observations

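Regulators and neighboring routes of glycolysis were also compared between the E9.25 whole bud and the E10.5 anterior bud, at the same thresholds. Of all genes, 38.1% were higher and 10.6% lower in WT and 15.8% and 9.17% in Gli3-/- buds. In WT, citric acid cycle, glycogen, pentose phosphate and non-glycolytic hypoxia-inducible genes did not rise more often than all genes. In the Myc family, 4 of 8 genes rose and 2 fell in WT, and 4 rose and 3 fell in Gli3-/- buds. Myc went from 37.6 to 58.4 TPM in E9.25 WT to 11.8 to 16.3 TPM in E10.5 WT libraries (-1.66 ± 0.17, adjusted p = 0.000277) and from 52.6 to 75.9 to 12.9 to 17.8 TPM in Gli3-/- libraries (-2.06 ± 0.15, adjusted p = 9.36e-06). Mxd4, Mxd3 and Mxd1, which compete with MYC for MAX, rose in WT (1.89 ± 0.18, adjusted p = 0.00017, 1.51 ± 0.23, adjusted p = 0.00153 and 1.21 ± 0.17, adjusted p = 0.00114). At E10.5, Mxd4 was lower in Gli3-/- than in WT buds (-0.72 ± 0.15, adjusted p = 0.0299).

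Of 8 genes of the hypoxia-inducible factor pathway, 4 rose and none fell in WT, while 2 rose and 1 fell in Gli3-/- buds. Those that rose in WT include Epas1 (0.89 ± 0.20, adjusted p = 0.00832) and Arnt (0.78 ± 0.14, adjusted p = 0.00287). Of 15 hypoxia-inducible genes outside glycolysis, 5 rose and 2 fell in WT. They went both ways, with Ddit4, Car9 and Kdm3a higher (1.71 ± 0.22, adjusted p = 0.000742, 0.92 ± 0.19, adjusted p = 0.00587 and 0.85 ± 0.21, adjusted p = 0.012) and Higd1a lower (-1.33 ± 0.09, adjusted p = 5.45e-05). In Gli3-/- buds 3 of 14 rose and 6 fell.

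Of 5 serine synthesis genes, which branch from 3-phosphoglycerate, 4 fell in WT and 3 in Gli3-/- buds. Psat1 and Psph changed most in WT (-0.92 ± 0.10, adjusted p = 0.00038 and -0.89 ± 0.12, adjusted p = 0.000836), and Phgdh was higher in Gli3-/- than in WT buds at E10.5 (0.33 ± 0.06, adjusted p = 0.0172). Of 16 citric acid cycle genes, 3 rose and 1 fell in WT and 1 rose in Gli3-/- buds, Ogdh being the most changed in WT (0.61 ± 0.15, adjusted p = 0.0105). Of 9 glycogen genes, 3 rose and 1 fell in each genotype, Pygb most in WT (0.95 ± 0.11, adjusted p = 0.000442), and of 7 pentose phosphate genes none passed in Gli3-/- buds and 2 rose in WT, G6pdx (0.42 ± 0.11, adjusted p = 0.0152) and Taldo1 (0.25 ± 0.08, adjusted p = 0.0385).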
